A study of Mus musculus with 12 samples.

Results

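The small nucleolar RNAs (snoRNAs) and small Cajal body RNAs (scaRNAs) of cultured mouse CD4 T cells were examined: every gene name starting with Snord, Snora or Scarna that was over 1 FPKM in at least 3 of 12 RNA-Seq libraries. The tables held 115 such names, of which 72 met the rule, among 24439 gene names in all and 12442 genes tested. The 72 RNAs were 33 of 70 Snord names, 31 of 36 Snora names and 8 of 9 Scarna names. They were chosen by their level in the same libraries, so their presence is a description and not a result. Of the other names, 31 were listed at 0 in all 12 libraries and 12 were over 1 FPKM in 1 or 2 libraries. At the edge of the rule, Snord65 reached 7444 FPKM but in 2 libraries, and Snord7 entered with 3 libraries and a highest value of 59.2 FPKM.

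T blasts (TB) are dividing T cells made from resting ones. CD4 T cells were taken with CD4 microbeads from the spleens of C42 mice, a line back-crossed to C57BL/6J. The line carries a fragment of the human IL3/CSF2 locus, so every group shares that transgene. All cells had 40 h of concanavalin A at 2 µg/ml and then 50 U/ml IL-2. TB IL-2 cells stayed in IL-2, whereas TB IL-2nil cells were without it for the last 16 h. TB+ IL-2 and TB+ IL-2nil are the same cells stimulated for 2 h by PMA/I, a pair of agents that stand in for T cell receptor signals: the phorbol ester PMA at 20 ng/ml, and the calcium ionophore A23187 at 2 µM. Whether IL-2 was in the medium during these 2 h was not stated in the sources used here. Each group had 3 libraries. Nothing in the labels says that the libraries of a group came from separate animals or cultures, so P-values measure the spread between these libraries only. The age of the mice was not given in the sources used here.

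The libraries labelled TB IL-2nil replicate 3 and TB+ IL-2 replicate 3 were each placed in the other's group, following the column names of a table of the study. Il2, the cytokine gene induced by PMA/I, was at 3539 scaled TPM in the library labelled TB IL-2nil replicate 3 and at 0.997 in the library labelled TB+ IL-2 replicate 3. Scaled TPM is FPKM rescaled to a fixed library sum (TPM) and brought to a common 75th percentile. The tests below rest on this placement. With the labels as they stand, the share of all 12442 genes that passed was 0.121% in TB IL-2 minus TB IL-2nil, 0.498% in TB+ IL-2 minus TB IL-2, 5.38% in TB+ IL-2nil minus TB IL-2nil, 0.217% in TB+ IL-2 minus TB+ IL-2nil and 0% in the interaction. No gene on the protein lists described below passed as labelled in any of these tests, and 1 host gene passed in 1 of them. Without both libraries the shares of all genes were 32.1, 30.7, 53.4, 9.62 and 0.0321%. All 6 CD4 T cell markers were over 1 scaled TPM in every library, with Cd4 between 100 and 371. Summed B cell markers were highest in the TB IL-2nil libraries, at 23.2, 29.6 and 23.5 scaled TPM against 2.36 to 12.7 elsewhere. Among them Cd79a had at most 9.04 and Cd79b at most 15.1, and all 4 were over 1 in at least 1 library. Both CD8 markers were detected, led by Cd8b1 at 5.82 to 18.4, whereas the most abundant myeloid marker, Cd68, stayed at 1.16 to 3.36 with 5 of 6 myeloid names listed and 3 over 1 in any library. Summed NK cell markers reached at most 0.303, and Ncr1, an NK cell receptor, was at 0 throughout. The part of these cells in the results below was not tested, and in bulk samples fewer cells of a type and less RNA per cell cannot be told apart.

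Most snoRNAs are guides that base-pair with ribosomal RNA in the nucleolus. Box C/D RNAs (Snord) direct 2′-O-methylation by fibrillarin and H/ACA RNAs (Snora) direct pseudouridylation by dyskerin, and a few members instead act in cutting the ribosomal RNA precursor. The scaRNAs carry the same boxes but reside in the Cajal body, where they guide modification of spliceosomal RNAs. In mammals most are cut and trimmed from introns of a host gene, so host transcription and snoRNA level need not move together.

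The following sequences carry calls described below or belong to RNAs among the highest of their class by mean scaled TPM, with boxes in capitals. Not every such RNA is shown, and that measure does not rank short RNAs by fragments. In Snord RNAs the capitals are box C (TGATGA) and box D (CTGA), each searched within 20 bases of an end on the RNA strand. In Snora RNAs they are the ACA that ends 3 bases before the 3′ end. Sequences were read 5′ to 3′ from NCBIM37 (mm9) at GENCODE M1 coordinates, and the gene models there are often longer than the RefSeq ones used for the deposited values. Snord49b and Snord49a lie at chr11:62416581-62416652 and chr11:62416952-62417023 (+), in introns of 2410006H16Rik. Snord12 is at chr2:166890776-166890865 (+) over an exon of Zfas1. Snora2b is at chr15:98356777-98356913 (−) in an intron of Kansl2, Snora41 at chr1:63225578-63225709 (+) in an intron of Eef1b2, and Snora21 at chr11:97642953-97643089 (−) in an intron of Rpl23.
Snord49b: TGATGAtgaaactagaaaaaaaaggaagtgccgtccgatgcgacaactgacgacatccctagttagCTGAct
Snord49a: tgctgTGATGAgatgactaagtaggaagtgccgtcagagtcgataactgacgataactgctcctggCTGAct
Snord12: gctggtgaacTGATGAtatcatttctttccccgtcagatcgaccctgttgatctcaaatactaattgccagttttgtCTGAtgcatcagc
Snora2b: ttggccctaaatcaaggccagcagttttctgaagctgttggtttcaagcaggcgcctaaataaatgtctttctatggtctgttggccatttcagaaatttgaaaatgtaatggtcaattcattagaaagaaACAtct
Snora41: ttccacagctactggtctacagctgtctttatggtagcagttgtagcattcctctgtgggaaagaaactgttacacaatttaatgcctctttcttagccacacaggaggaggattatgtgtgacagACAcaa
Snora21: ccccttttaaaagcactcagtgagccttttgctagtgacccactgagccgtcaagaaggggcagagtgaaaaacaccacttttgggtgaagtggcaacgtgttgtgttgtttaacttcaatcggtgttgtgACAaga

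The letters separated the classes as their names say. Of the 30 Snord genes with a GENCODE M1 entry, all 30 held CTGA near the 3′ end and 21 (70%) also held TGATGA near the 5′ end, against 4 (14.3%) and 0 of 28 Snora genes. The terminal ACA was present in 22 Snora genes (78.6%) and in no Snord gene. Snora44, not shown above, was among the Snora genes without it. The 8 scaRNAs were mixed: 3 had both C/D boxes and 2 the terminal ACA. A missing match says only that these letters are not in that window. Of the 66 RNAs with an entry, 37 lay in an intron of a host on the same strand, 23 overlapped an exon of it, and 6 had no host. Reads of a host and of an RNA over its exon cannot be told apart, and near-identical copies elsewhere in the genome may share reads. Rpl13a hosted Snord32a, Snord33, Snord34 and Snord35a, so these members share their source.

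The FPKM values of short RNAs rose in steps, which showed how many fragments stood behind them. Within a library, values of RNAs of like length were whole multiples of 1 quantity, the worth of 1 fragment. Of the values under 8 steps, 88.5 to 97.7% per library lay within 0.1 of a whole number. The step depended steeply on length. In TB+ IL-2nil replicate 1, 1 fragment was worth 7985 FPKM for an RNA of 60 bases but 12.2 FPKM at 130 bases. In TB+ IL-2nil replicate 3 the same steps were 513 and 3.75 FPKM. A value in FPKM or scaled TPM therefore does not rank short RNAs of different length by the number of molecules sampled. A value of 0 allows up to 3 fragments, which at 60 bases is 23955 FPKM in TB+ IL-2nil replicate 1 and 1539 FPKM in TB+ IL-2nil replicate 3. Limits and intervals of this kind cover counting error only, since the fragments are amplified copies without molecular tags.

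**Figure D1:**
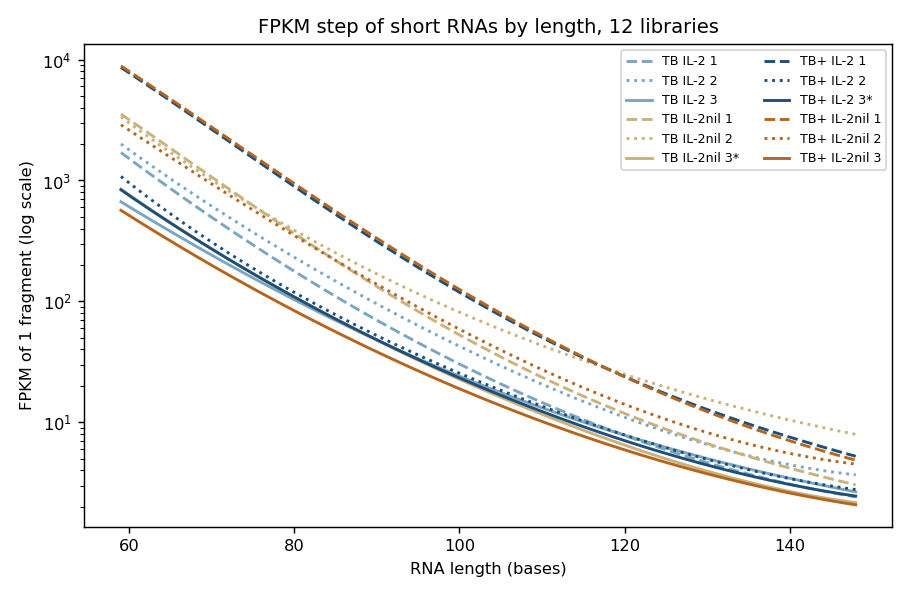
FPKM worth of 1 fragment (y, log scale) against RNA length in bases (x) in the 12 libraries, coloured by placed group, dashed for number 1, dotted for 2, solid for 3, with * for the pair placed in the other group. The curves fall from between 513 and 7985 FPKM at 60 bases to between 3.75 and 15.6 FPKM at 130 bases, and the 2 highest at 60 bases are TB+ IL-2 replicate 1 and TB+ IL-2nil replicate 1.

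Steps could be set for the 65 RNAs of up to 150 bases. The 32 box C/D RNAs among them had a median length of 77.5 bases and a median of 4 fragments per value above 0, and 44.7% of those values were 1 to 3 fragments. The 27 H/ACA RNAs, with a median length of 120 bases, had a median of 9 fragments, and 23.7% of their values were 1 to 3 fragments. Of the 58 scaRNA values above 0, 46.6% were 1 to 3 fragments. An observed count of 1 has an exact 95% Poisson interval of 0.0253 to 5.57. Summed over the 65 RNAs, a library held between 351 and 2979 fragments. Scarna2 and Scarna10 have RefSeq lengths of 61 and 71 bases against GENCODE M1 spans of 414 and 325, so their levels depend on which gene model is used.

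The order of abundance changed with this view. By mean scaled TPM the highest box C/D RNA was Snord49b, at 25314, followed by Snord47 at 12315, Snord49a at 9990, Snord83b at 8896 and Snord22 at 8578. Snord49b, the 2410006H16Rik intron RNA, had 5648, 89043 and 23280 scaled TPM in TB IL-2, 0, 31087 and 41346 in TB IL-2nil, 0, 12153 and 29269 in TB+ IL-2, and 0, 37691 and 34250 in TB+ IL-2nil. These values stand for 129 fragments over all 12 libraries, with none seen in 3 of the 4 libraries numbered 1. Snord22, the U22 RNA needed for processing of the small ribosomal subunit RNA, stood for 3654 fragments, Snord15b for 3454 and Snord15a for 1925. Among H/ACA RNAs the highest means were Snora74a at 4616, Snora44 at 4123, Snora21 at 2359, Snora26 at 2250 and Snora23 at 2196 scaled TPM. Snora44 stood for 1291 fragments and Snora21 for 1137. Snora74a and Snora23 are over 150 bases and have no step. The lowest H/ACA mean was that of Snora47, at 18.2 scaled TPM and 6 fragments.

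Among the scaRNAs, Scarna10 had the highest mean, 27919 scaled TPM, from 132 fragments. It was at 16277, 0 and 5064 in TB IL-2, at 37874, 19698 and 9340 in TB IL-2nil, at 38630, 18918 and 5658 in TB+ IL-2, and at 138060, 30015 and 15497 in TB+ IL-2nil. The groups overlapped, and the highest single value, in TB+ IL-2nil replicate 1, was 12 fragments while the 15497 of TB+ IL-2nil replicate 3 was 23. Scarna17, at a mean of 4704 scaled TPM, rested on 7 fragments and Scarna2, at 3628, on 12. The longer Scarna6 and Scarna13 were over 1 FPKM in all 12 libraries, with means of 3307 and 590. The U3, U13 and U17 genes were not analysed here. U8 (Snord118), which acts in processing of the large subunit RNAs, was present in every library with 670 fragments in all.

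**Figure D2:**
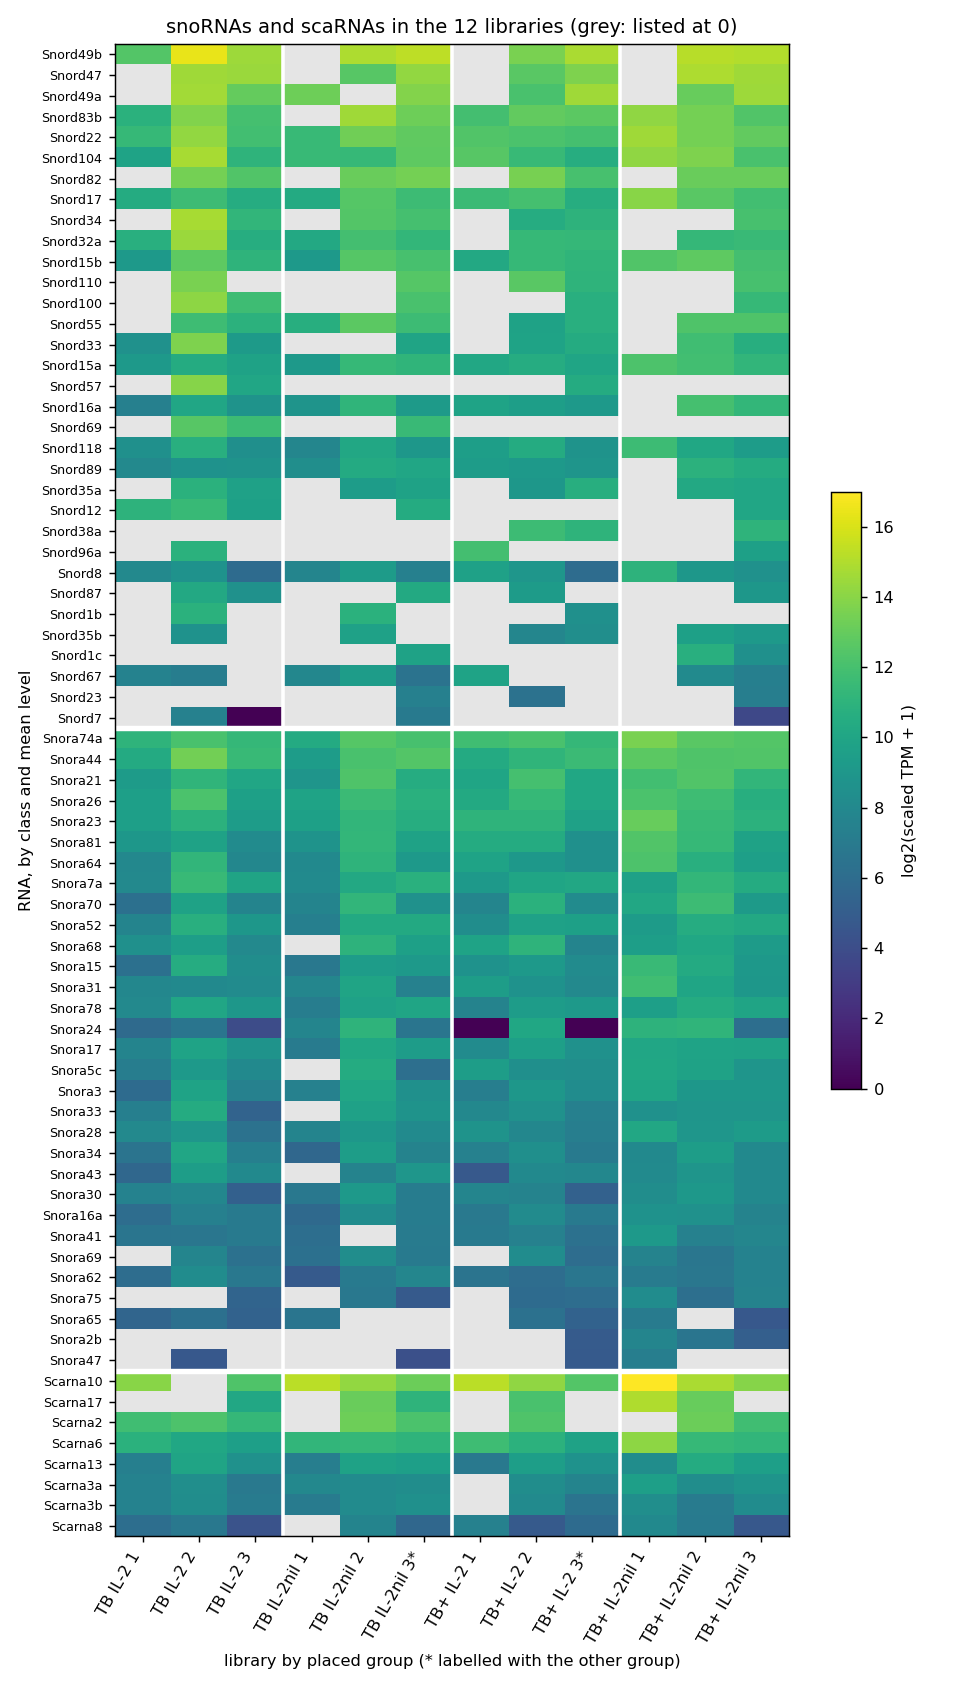
Log2(scaled TPM + 1) of the 72 RNAs (rows, box C/D, then H/ACA, then scaRNAs, each by mean level) in the 12 libraries (columns, by placed group, * labelled with the other group), with grey for values of 0. Grey cells gather in the box C/D rows of libraries numbered 1, where 8 to 15 of 33 RNAs were above 0.

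Fewer RNAs were seen in the libraries numbered 1 than in the others. In these, 49 (TB IL-2), 42 (TB IL-2nil), 42 (TB+ IL-2) and 46 (TB+ IL-2nil) of the 72 RNAs were above 0, against 55 to 67 in the other 8. For box C/D RNAs the counts were 15, 13, 12 and 8 of 33, against 20 to 30 in the others. H/ACA RNAs were more evenly seen, at 24 to 31 of 31 per library. The share of all FPKM taken by the 72 RNAs ran from 6.81% in TB IL-2 replicate 1 to 31.9% in TB IL-2 replicate 2, so replicates of 1 group spanned the whole range. The CD8 T cell markers were also high in the libraries numbered 1. Cd8a and Cd8b1 summed to 31.9, 22.1, 29.5 and 22 scaled TPM there, against 6.91 to 17.7 in the other 8, and Cd8a alone was at 6.88 to 13.5 against 0.911 to 5.12. What the numbers stand for was not given in the sources used here, and neither its part nor that of CD8 T cells in these differences was tested.

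**Figure D3:**
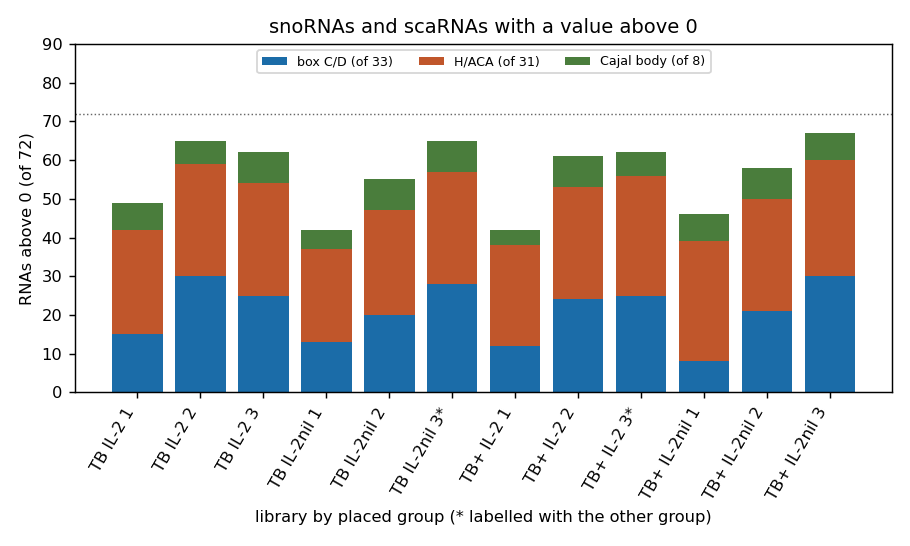
Number of the 72 RNAs above 0 (y) in each library (x, by placed group, * labelled with the other group), stacked by class. The first bar of each group, number 1, is the lowest of its group, at 42 to 49 RNAs against 55 to 67 in the rest.

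For some H/ACA RNAs the libraries numbered 2 were high. Snora70, over an exon of Rpl10, had 893, 2292, 1891 and 3244 scaled TPM in the libraries numbered 2, against 77.6 to 1177 in the other 8. The groups of Snora70 overlapped in each of the 4 comparisons of groups. Snora24 had 2141, 1127 and 2211 in 3 of the libraries numbered 2 and 2017 in TB+ IL-2nil replicate 1, against 212 at most in the other 8, TB IL-2 replicate 2 included.

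The first comparison asked what IL-2 changed in resting blasts (TB IL-2 minus TB IL-2nil). No snoRNA or scaRNA passed the limma test at an adjusted P under 0.05, whereas 39.6% of all genes tested did. With the libraries as labelled no RNA passed either, but only 15 of the 12442 genes did. At an unadjusted P under 0.05, 2 RNAs were higher and 0 lower. The median log2 difference was 0.18 over the 33 box C/D RNAs, −0.16 over the 31 H/ACA RNAs and −0.43 over the 8 scaRNAs, beside −0.13 over all genes. The median standard error was 3.25 for box C/D RNAs and 0.91 for H/ACA RNAs, against 0.23 for all genes, so differences smaller than these errors were not detectable. With the library number as a block, 3 box C/D RNAs (Snord12, Snord33 and Snord57) were higher and Snora70 lower, 4 of 72 against 50.8% of all genes. Those 3 rested on 5, 48 and 6 fragments in all. Snord12 and Snord57 met the 3-library rule only through their TB IL-2 libraries, so their calls as higher there are a description. For Snora70 the blocked difference was −1.24 ± 0.39 (SE, adjusted P = 0.0268 by limma), and −1.10 with the libraries as labelled, without a block (adjusted P = 0.764).

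Well-sampled RNAs overlapped between the 2 groups. Snord22 had 2695, 19129 and 3785 scaled TPM in TB IL-2 and 2828, 10373 and 7388 in TB IL-2nil, a log2 difference of −0.05 ± 0.70 (SE, n = 3 each). Within both groups the library numbered 2 was the highest. Snord118 differed by 0.23 ± 0.80, Snora21 by −0.41 ± 0.81 and Snora44 by 0.42 ± 0.82. Scarna6 had groups that did not overlap, at 1814, 1101 and 774 against 2282, 2550 and 2101 scaled TPM, a difference of −0.99 ± 0.71 (adjusted P = 0.283 by limma). Snora24 was the only other RNA of the 72 whose groups were apart here, also lower in TB IL-2. Over all genes 30.4% were apart with TB IL-2 lower and 22.8% with TB IL-2 higher.

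Of the 48 tested hosts of 60 RNAs 10 were higher and 7 lower with IL-2, beside 39.6% of all genes, and 28 RNAs had a difference of the same sign as the host. The long non-coding host 2410006H16Rik was at 108, 111 and 146 scaled TPM in TB IL-2 and at 419, 458 and 602 in TB IL-2nil, far apart (adjusted P = 0.000369 by limma). The non-coding host Zfas1 differed by −1.53 ± 0.33 (adjusted P = 0.0042). Nop56, a box C/D core protein gene that also hosts Snord57 and Snord110, rose by 1.94 ± 0.25, and Ncl, the nucleolin gene that hosts Snora75 and Snord82, by 0.90 ± 0.29. No host passed with the libraries as labelled, and 9 were higher and 6 lower without both moved libraries.

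The next genes encode the proteins that hold these RNAs, and their counts stand beside 39.6% of all genes. All 4 box C/D core genes tested rose with IL-2, by a median of 1.82 on the log2 scale, as did all 4 H/ACA core genes, by 1.73. Fbl, the fibrillarin methyltransferase, was at 158, 184 and 200 scaled TPM in TB IL-2 and at 61.2, 50.2 and 52.8 in TB IL-2nil, a log2 difference of 1.70 ± 0.20 (SE, adjusted P = 0.000169 by limma). Dkc1, the dyskerin pseudouridine synthase, was at 44.1, 88.2 and 65 against 22.6, 16.8 and 18 (1.68 ± 0.31, adjusted P = 0.00181). In both genes every library with IL-2 was above every library without it. All 10 assembly factors on the list passed upwards, among them Nolc1, a Cajal body and nucleolar chaperone, by 1.95 ± 0.31. Of 7 Cajal body genes 2 were higher and 1 lower, and Coil, the coilin scaffold of that body, differed by 0.32 ± 0.18 (adjusted P = 0.178). Of the other lists, 2 of 5 cap and transport genes and 2 of 5 lariat release and trimming genes were higher and none lower. One of the latter was Dbr1, the enzyme that opens intron lariats (0.79 ± 0.15, adjusted P = 0.00218). With the libraries as labelled none of these genes passed, and Fbl differed by 0.79 ± 0.82 (adjusted P = 0.751). Without both moved libraries all 4 genes of each core set passed, as did 8 of 10 assembly factors, 1 of 5 cap and transport genes and 1 of 5 lariat release and trimming genes.

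PMA/I in blasts that had been kept in IL-2 (TB+ IL-2 minus TB IL-2) gave 1 call among the 72 RNAs, against 35.1% of all genes tested. Snord12 was at 2000, 2792 and 793 scaled TPM in TB IL-2 and at 0 in all 3 TB+ IL-2 libraries (adjusted P = 0.0157 by limma). Snord12 was over 1 FPKM in 5 libraries and met the rule of 3 only through the 3 of TB IL-2, the group where it is high, so the rule itself favoured this difference and the P-value is no support for it. Each TB IL-2 value was 1 fragment, and both groups lie within what a count of 0 allows, so no fold is given. With the libraries as labelled the adjusted P was 0.317, and without both moved libraries 0.0138. Its host Zfas1, whose exon it overlaps, differed by 0.29 ± 0.33 on the log2 scale. The class medians were −0.31 for box C/D, 0.17 for H/ACA and 0.00 for scaRNAs, beside −0.22 over all genes. The block added Snord69, with 4 fragments in all libraries together and over 1 FPKM in 3 libraries, of which TB IL-2 held all but 1, giving 2 of 72 against 46.3% of all genes. Of the core protein genes, beside the same 35.1% of all genes, all 4 of the box C/D set rose, by a median of 0.97, but of the H/ACA core only Dkc1 passed (0.91 ± 0.31, adjusted P = 0.0386). The U3 protein gene Rrp9 rose by 1.45 ± 0.31 (adjusted P = 0.00474). Assembly factors passed in 4 of 10 cases, all upwards. Cap and transport genes were lower in 2 of 5 cases, Cajal body genes higher in 1 and lower in 1 of 7, and none of 5 lariat and trimming genes passed. Of the 48 hosts 12 rose and 1 fell, beside 35.1% of all genes, with a median of 0.35. No core, other protein list or host gene passed with the libraries as labelled. Without both moved libraries 3 of 4 box C/D core genes passed, Dkc1 did not (adjusted P = 0.0707 by limma), and 11 hosts rose and 3 fell. In that setting 1 of 7 Cajal body genes was lower and none higher.

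PMA/I after IL-2 withdrawal (TB+ IL-2nil minus TB IL-2nil) gave 3 calls: 3 H/ACA RNAs rose, no box C/D RNA or scaRNA passed, and no RNA fell. This was 3 of 72, against 61.2% of all genes tested. All 31 H/ACA RNAs had a difference above 0, with a median of 1.21 on the log2 scale. Beside it stood −0.38 over all genes, 0.37 over 105 miRNA genes and 0.81 over 7 other short RNA genes. In the same order these were −0.26, 0.14 and 1.11 with the libraries as labelled. Without both moved libraries they were −0.36, 0.96 and 1.01, so other short RNAs were also above 0. Leaving out Snora2b, which was at 0 throughout one group, 30 of 30 H/ACA RNAs stayed above 0 and their median stayed 1.21. The median depended on the setting and on 1 library: it was 1.43 with the libraries as labelled, 0.67 with quantile normalization, 0.66 without scaling between libraries and 0.35 without TB IL-2nil replicate 1. Box C/D RNAs had a median of 0.00 and scaRNAs of 0.89. The scaRNA median was −0.15 without TB IL-2nil replicate 1, 0.28 without TB+ IL-2nil replicate 1 and 1.38 with the libraries as labelled. Groups that did not overlap, with TB+ IL-2nil higher, were seen for 2 of 31 H/ACA RNAs and 0 of 41 others, against 21.8% of all genes. These were Snora41, which overlapped in fragments, and Snora2b. Snora2b met the 3-library rule only through TB+ IL-2nil, so its place in this count is no support.

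Among the 3 calls, Snora31 had the most fragments. This RNA, from an intron of Tpt1, was at 224, 976 and 174 scaled TPM in TB IL-2nil and at 3570, 1039 and 505 in TB+ IL-2nil, from 3, 7 and 5 against 17, 11 and 15 fragments. The groups overlapped, and the difference was 1.87 ± 0.73 on the log2 scale (SE, adjusted P = 0.0447 by limma). It lost the call when any of 4 libraries was left out: the adjusted P was 0.13 without TB IL-2nil replicate 1, 0.164 without the library labelled TB+ IL-2 replicate 3, 0.192 without TB+ IL-2nil replicate 1 and 0.0752 without TB+ IL-2nil replicate 2. It was 0.156 with the libraries as labelled and 0.17 without both moved libraries. Tpt1 itself, which encodes a translationally controlled growth protein, rose by 0.54 ± 0.15 (adjusted P = 0.00792).

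Snora41, from an intron of the elongation factor gene Eef1b2, was at 69.5, 0 and 131 scaled TPM in TB IL-2nil and at 581, 176 and 223 in TB+ IL-2nil. The fragments were 1, 0 and 4 against 3, 2 and 7. The groups did not overlap in scaled TPM although they did in fragments, and the difference was 3.76 ± 1.38 (adjusted P = 0.0345 by limma). The adjusted P was 0.0852 with the libraries as labelled, 0.0138 without both moved libraries, 0.112 without TB+ IL-2nil replicate 1, 0.0553 without replicate 2 and 0.0621 without replicate 3 of that group. Eef1b2 rose by 0.45 ± 0.18 (adjusted P = 0.0437).

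Snora2b was at 0 in all 3 TB IL-2nil libraries and at 210, 94.5 and 33.7 scaled TPM in TB+ IL-2nil (adjusted P = 0.000373 by limma), the lowest P among the 72 RNAs. Each of these values was 1 fragment, the fourth fragment being in the library labelled TB IL-2nil replicate 3, and no fold is given. The adjusted P was 0.0387 with the libraries as labelled and 7.18e-05 without both moved libraries. It met the rule in 4 libraries, 3 of them TB+ IL-2nil, the group where it is high, so here too the P-value is no support for the difference. Kansl2, its host and a subunit gene of a histone acetyltransferase complex, rose by 0.93 ± 0.20 (adjusted P = 0.00201).

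**Figure D4:**
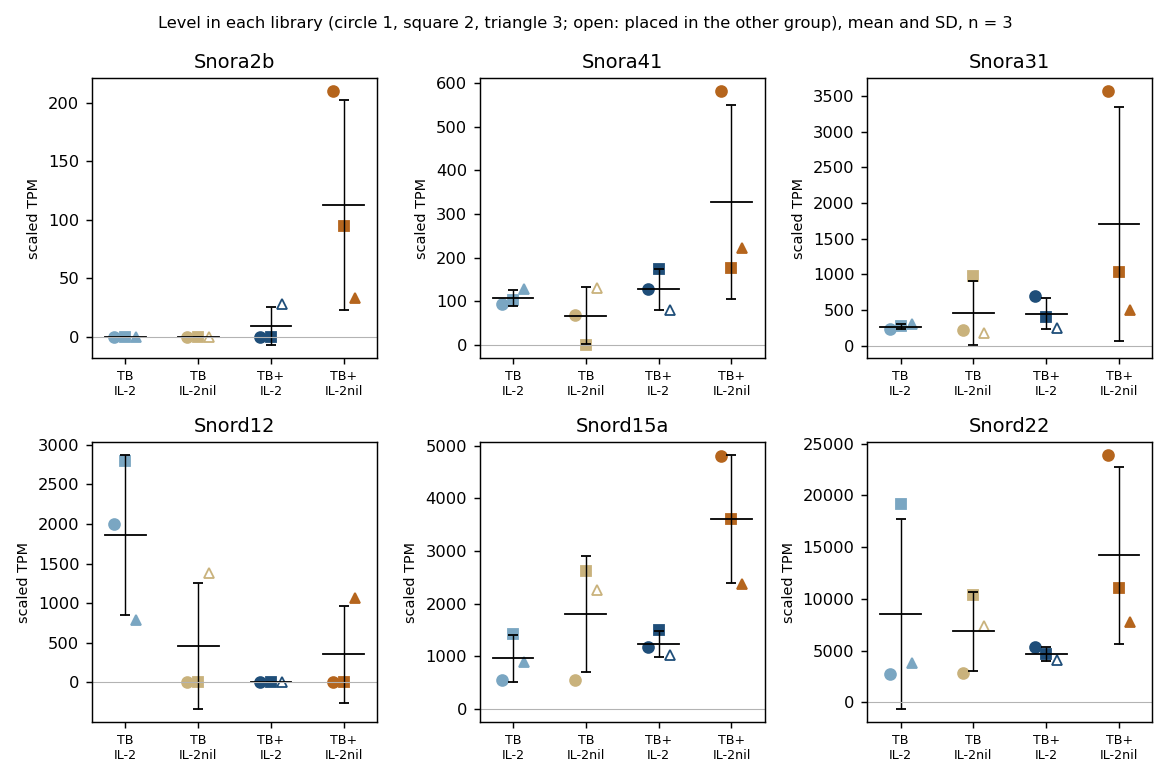
Scaled TPM (y) of 6 RNAs in each library of the 4 placed groups (x), with the mean (bar) and SD, n = 3; circles are number 1, squares 2, triangles 3, and open triangles the pair placed in the other group. In Snora2b, Snora41 and Snora31 the circle of TB+ IL-2nil is the highest point (210, 581 and 3570), and Snord12 is at 0 in all TB+ IL-2 libraries.

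The block raised the count in this comparison to 9 of 72, against 69.1% of all genes. The 9 were Snora2b, Snora31, Snora41, Snora16a, Snora21, Snora70, Snora78, Snord15a and Scarna13, all higher in TB+ IL-2nil. Among them Snora2b was favoured by the 3-library rule, so its place in this count is no support. Snord15a, a box C/D RNA from an intron of Rps3, was at 559, 2623 and 2254 scaled TPM in TB IL-2nil and at 4813, 3617 and 2379 in TB+ IL-2nil, a difference of 1.22 with an SE of 0.54 (adjusted P = 0.0697) and of 0.48 with the block (adjusted P = 0.0465 by limma). Snora21 differed by 1.21, with adjusted P = 0.215 and, with the block, 0.0351. The size of the rise depended on the number. Between libraries numbered 1 the H/ACA median was 3.04 and all 31 were higher, whereas it was 0.05 between libraries numbered 2, with 17 higher and 12 lower, and 0.39 between those numbered 3, with 20 higher and 11 lower. Over all genes the same medians were −0.41, −0.34 and −0.35. The CD8 marker sum, high in both libraries numbered 1, was 22.1 in TB IL-2nil and 22 in TB+ IL-2nil. The B cell marker sum was lower in TB+ IL-2nil in each pair, at 23.2 against 7.49, 29.6 against 5.49 and 23.5 against 12.7. The part of these cells was not tested. Without TB IL-2nil replicate 1 the H/ACA median was 0.35, and without the 4 libraries numbered 1 the only RNA left with a call was Snora2b.

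**Figure D5:**
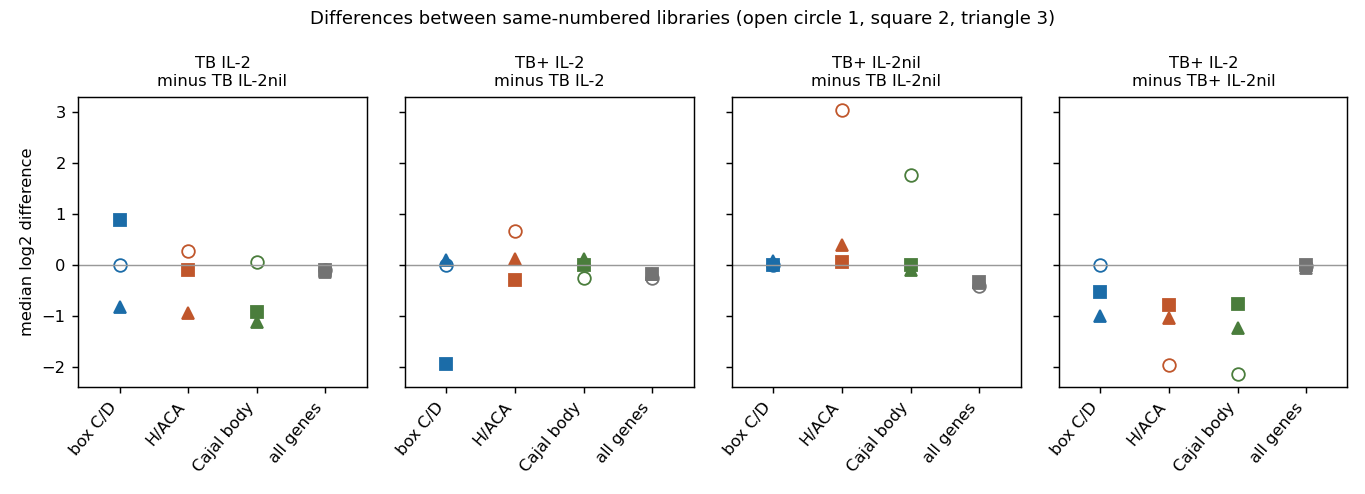
Median log2 difference in scaled TPM (y) between same-numbered libraries for the 33 box C/D, 31 H/ACA and 8 Cajal body RNAs and for all genes (x), in 4 comparisons; open circles are number 1, squares 2, triangles 3. In TB+ IL-2nil minus TB IL-2nil the H/ACA circle is at 3.04 with the others at 0.05 and 0.39, and in TB+ IL-2 minus TB+ IL-2nil the 3 H/ACA points are at −1.97, −0.78 and −1.05.

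In this comparison all 4 box C/D core genes rose, by a median of 3.09, and all 4 H/ACA core genes, by 2.26, beside 61.2% of all genes that passed. Nop58, a box C/D core protein, was at 32.3, 27.7 and 34.9 scaled TPM in TB IL-2nil and at 432, 431 and 263 in TB+ IL-2nil (3.50 ± 0.29, adjusted P = 4.32e-06 by limma). Gar1, an H/ACA core protein, was at 7.49, 9.84 and 8.67 against 34.7, 54.1 and 39.5 (2.16 ± 0.35, adjusted P = 0.00028). The groups of both genes were far apart. Of the 10 assembly factors 8 rose and 1 fell, and Rrp9 rose by 3.68 ± 0.31. Wrap53, the protein that brings scaRNAs to the Cajal body, fell by 0.76 on the log2 scale (adjusted P = 0.00356), 1 of 2 Cajal body genes that fell while 1 rose. Cap and transport genes rose in 2 and fell in 1 of 5 cases, and so did lariat release and trimming genes. Of the 48 tested hosts of 60 RNAs, 17 rose and 2 fell, beside 61.2% of all genes, with a median of 0.30. With the libraries as labelled no core or other protein list gene passed and 1 host rose. Without both moved libraries all 4 genes of each core set and 8 assembly factors rose, and 16 hosts rose and 1 fell.

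Snhg4, the host of Snora74a, rose by 1.87 ± 0.21 (adjusted P = 3.13e-05), and Gas5, which hosts Snord47, by 1.44 ± 0.38 (adjusted P = 0.00658). Snora74a differed by 1.21 ± 0.52 (adjusted P = 0.0635) and Snord47, which was at 0 in every library numbered 1, by 0.87. Snhg12, host of Snora44, rose by 0.78 ± 0.30 (adjusted P = 0.0401), whereas Snora44 differed by 1.13 ± 0.82 (adjusted P = 0.249). Ipo7, the host of Snora23, rose by 1.94 ± 0.27 (adjusted P = 0.000108), whereas its RNA had an adjusted P of 0.089. Other hosts did not pass: Snhg1, which holds Snord22, differed by 0.97 ± 0.41, Rpl3 with Snord83b by 0.16 ± 0.23, Rpl23 with Snora21 by 0.23 ± 0.17, and 2410006H16Rik with Snord49a and Snord49b by 0.06 ± 0.27. Of the 60 RNAs with a tested host, 43 had a difference of the same sign as the host. Since 54 of the 72 RNAs were above 0, like signs can arise without pairing, and that count was not worked out. The hosts of Scarna10 and Scarna6 are Ncapd2, a condensin subunit gene, and the autophagy gene Atg16l1, and Ncapd2 differed by −0.99 ± 0.60.

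The effect of IL-2 in stimulated blasts (TB+ IL-2 minus TB+ IL-2nil) was below 0 for most H/ACA RNAs and scaRNAs. Snora2b was the only call, lower with IL-2 (adjusted P = 0.0100 by limma, on 1 against 3 fragments), 1 of 72 against 21.3% of all genes tested. It met the 3-library rule only through TB+ IL-2nil, the group where it is high, so its P-value is no support for the difference. The adjusted P was 0.0519 with the libraries as labelled and 0.000929 without both moved libraries. At an unadjusted P under 0.05, 6 RNAs were lower and 0 higher. The median was −1.20 over H/ACA RNAs, with 30 of 31 below 0, −2.22 over scaRNAs, with 8 of 8 below 0, and −0.62 over box C/D RNAs. Beside these stood −0.04 over all genes, −0.09 over 105 miRNA genes and −0.89 over 7 other short RNA genes. In the same order these were 0.12, −0.48 and −0.66 with the libraries as labelled. Without both moved libraries they were −0.04, −0.50 and −0.93, so other short RNAs were also below 0. The H/ACA median was −1.01 without both moved libraries, and below 0 with the libraries as labelled. The scaRNA median was −1.04 as labelled and −1.72 without both. Leaving out box C/D RNAs at 0 throughout either group left 20 of 27 below 0 and the median at −0.62. The box C/D median did not keep its direction: it was −0.06 with the libraries as labelled and −1.23 without both moved libraries, but 1.61 without TB+ IL-2 replicate 1 and 1.35 without TB+ IL-2nil replicate 3. Between same-numbered libraries the H/ACA medians were −1.97, −0.78 and −1.05 for numbers 1, 2 and 3, and for all genes −0.03, 0.00 and −0.06. Summed H/ACA fragments, not adjusted for depth, were 133, 1031 and 689 in TB+ IL-2 against 379, 740 and 984 in TB+ IL-2nil. The pair numbered 2 thus had the opposite direction in fragments. There 1 fragment at 130 bases was worth 4.94 FPKM in TB+ IL-2 and 8.23 in TB+ IL-2nil. The part of this conversion in the medians was not tested. The groups did not overlap, with TB+ IL-2 lower, for 10 of 31 H/ACA RNAs, 3 of 33 box C/D RNAs and 0 of 8 scaRNAs, against 18.3% of all genes. Snora2b was 1 of the 10, and through the 3-library rule its place there is no support. The H/ACA count was 7 with the libraries as labelled, when 9.14% of all genes were apart in this direction, and 10 without both moved libraries, when 21.3% were.

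Snora44, Snora74a, Snord15a, Snord15b and Snord22 were among those apart in scaled TPM. In fragments Snora44 overlapped, at 14, 79 and 146 in TB+ IL-2 against 48, 74 and 205 in TB+ IL-2nil. So did Snord15b, at 64, 294 and 323 against 197, 367 and 461, and Snord22, whereas Snord15a did not. Snord22 was at 5370, 4648 and 4044 scaled TPM in TB+ IL-2 and at 23904, 11031 and 7735 in TB+ IL-2nil, from 103, 258 and 296 against 316, 274 and 462 fragments, and differed by −1.45 ± 0.70 (adjusted P = 0.166 by limma). Snord15a was at 1170, 1505 and 1032 against 4813, 3617 and 2379 (−1.50 ± 0.54, adjusted P = 0.0696). In both RNAs TB+ IL-2nil replicate 1 was the highest library. With the block, 7 RNAs passed, all lower with IL-2, against 33.6% of all genes: Snora2b, Snora24, Snora30, Snora70, Snora78, Snord15a and Scarna13. The place of Snora2b in this count was again favoured by the 3-library rule and is no support. Scarna13 was at 115, 725 and 410 in TB+ IL-2 and 320, 1421 and 770 in TB+ IL-2nil, lower by number in each pair, and its difference of −1.11 had an SE of 0.90 without and 0.22 with the block (adjusted P = 0.406 and 0.00524). Core protein genes did not pass in either class: the box C/D median was −0.27 and the H/ACA median 0.09. Assembly factors were higher with IL-2 in 3 of 10 cases, cap and transport genes in 1 of 5, Cajal body genes higher in 1 and lower in 1 of 7, and lariat and trimming genes in 0 of 5, beside 21.3% of all genes. Of the 72 RNAs 10 were above 0, the median of the hosts was −0.26, and 43 of 60 RNAs had the sign of the host. The count of like signs to be met without any pairing was not worked out. Of the 48 hosts 4 were higher and 7 lower, beside 21.3% of all genes. Among them 2410006H16Rik differed by −1.41 ± 0.27 (adjusted P = 0.00495) and Zfas1 by −1.11 ± 0.33 (adjusted P = 0.0342), both lower with IL-2, and Ncapd2, the host of Scarna10, was higher by 2.38 ± 0.60 (adjusted P = 0.0175). No protein list or host gene passed with the libraries as labelled. Without both moved libraries 2 hosts were higher and 4 lower, and the adjusted P by limma was 0.119 for Zfas1 and 0.0765 for Ncapd2. In that setting 1 of 10 assembly factors, 1 of 5 cap and transport genes and 0 of 7 Cajal body genes passed.

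Whether the response to PMA/I differed with IL-2 was tested as the interaction. No RNA of the 72 passed, without or with the block, against 4.23% and 11.9% of all genes. The first of these shares, 526 genes, was not stable: 0 genes passed with the libraries as labelled, 4 without both moved libraries, 1 without scaling and 11 without the 4 libraries numbered 1. Leaving out single libraries gave from 85 genes, without TB IL-2nil replicate 2, to 1314, without TB+ IL-2nil replicate 3. At an unadjusted P under 0.05, 2 RNAs were below 0 and 0 above, and the lowest adjusted P was 0.0941 (Snora2b). The median was −0.82 over box C/D RNAs, −1.22 over H/ACA RNAs and −1.36 over scaRNAs, beside 0.16 over all genes. Other short RNAs were also below 0, with a median of −1.39 over 105 miRNA genes and −0.89 over 7 others. Single libraries decided the sizes for box C/D RNAs, H/ACA RNAs and scaRNAs. The H/ACA median was −0.32 without TB IL-2nil replicate 1, −0.44 without TB IL-2 replicate 2 and at its lowest −1.76, without TB IL-2 replicate 1. The box C/D median was 0.43 without TB IL-2 replicate 2 and 0.25 without TB+ IL-2nil replicate 3, and −2.11 without TB IL-2 replicate 1. The scaRNA median ran from −2.97, without TB IL-2nil replicate 2, to −0.23, without TB IL-2nil replicate 1. The box C/D core proteins passed in 4 of 4 cases, all below 0, for example Fbl at −1.87 ± 0.28 (adjusted P = 0.0119), as did the U3 protein gene Rrp9 and 2 of 4 H/ACA core genes. Of the remaining lists 2 of 10 assembly factors and 1 of 5 cap and transport genes passed, all below 0, and no Cajal body or lariat and trimming gene did. Of 105 miRNA genes 2 passed and of 48 hosts 3, all below 0. No protein list or host gene passed in the interaction with the libraries as labelled or without both moved libraries. Of the miRNA genes 0 passed as labelled, and without both moved libraries 2 passed, above 0.

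Across the comparisons, the 21 RNAs with a mean of 10 or more fragments per library had no call in any of the 5 tests without the block, and those calls lay among the 44 with fewer. With the block the 21 had 1, 0, 4 and 3 calls in the 4 comparisons of groups, in the order given above, and 0 in the interaction. Their median standard errors were 0.88 and 2.61 in each comparison of groups. The 7 RNAs over 150 bases, for which no step could be set, had no call without the block, 2 with it in each of the comparisons with TB+ IL-2nil, and a median standard error of 0.71. The other short RNAs were read against the shares of all genes, 39.6, 35.1, 61.2 and 21.3% in the same order of comparisons. Of 105 miRNA genes tested, 10 rose and 0 fell in TB+ IL-2nil minus TB IL-2nil, with a median standard error of 1.52. In the other comparisons of groups 2 rose and 0 fell with IL-2 in resting blasts, 7 rose and 1 fell with PMA/I in blasts kept in IL-2, and 2 were higher and 6 lower with IL-2 in stimulated blasts. As labelled, 2 miRNA genes passed, both in TB+ IL-2nil minus TB IL-2nil. Without both moved libraries 5 rose and 0 fell in that comparison, and 2 were higher and 2 lower with IL-2 in stimulated blasts. Over the miRNA genes the median log2 differences were 0.00, 0.00, 0.37 and −0.09 in the same order, and −1.39 in the interaction. The other short RNA genes were taken by name, without keeping out RNAs that carry C/D or H/ACA boxes. Those tested were Rpph1, Rmrp, Terc, Vaultrc5, Rnu11, Rnu12 and Rnu73b. Of these 7 none passed in any comparison. Their medians were −0.02, 0.19, 0.81 and −0.89 in that order, and −0.89 in the interaction. The median standard error of these 7 was 0.75 in each comparison of groups. Rmrp, the RNA of RNase MRP, was highest in TB+ IL-2nil replicate 1, at 243848 scaled TPM against 21827 to 63199 in the other 11 libraries, and differed by 1.32 ± 0.54 in TB+ IL-2nil minus TB IL-2nil (adjusted P = 0.0521).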

How the data were processed

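RNA was depleted of ribosomal RNA and made into directional paired-end libraries (NEBNext). The authors used Trimmomatic 0.32 for trimming, HISAT2 2.1.0 for alignment (mm9) and StringTie 1.3.3 for quantification over RefSeq, and deposited 1 table of FPKM values per library, without counts. FPKM summed to 193815 to 420487 per library. The study's methods speak of TPM, so FPKM was rescaled to TPM here. The filter asked for more than 1 TPM in any library, and the genes that passed it were scaled to a common 75th percentile and tested as log2(TPM + 1) with limma 3.58.1 (R 4.3.3) over 4 groups, with Benjamini-Hochberg adjustment over 12442 genes. Differences are on that scale, which understates changes of low genes. An RNA passed at an adjusted P under 0.05. The 2 moved libraries were placed by the columns of a study table, each met by 1 quantile-normalized library at 99.9 to 100% of 1381 genes.

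Same-numbered libraries deviated together from their group means in 18 of 18 pairs. Their r was 0.101 to 0.531 over all genes and −0.135 to 0.517 over snoRNA and scaRNA genes alone. Between libraries of different number and group r ran from −0.416 to 0.171 over all genes, so the ranges overlapped. The pairing comes from these correlations, since the labels give only the numbers. For snoRNAs and scaRNAs, results with the number as a block are therefore given where they change a count or call. Shares of all genes with the block stand beside them. Counts of hosts, protein lists, miRNA genes and other short RNAs are given without the block only. Whether the block changes those counts is not given here.

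Fragment steps were fitted per library to RefSeq short RNAs of up to 150 bases as a smooth function of length. The limma fit and the step fit were both run on simulated data, and those outcomes are not quoted here. All 72 names matched RefSeq, and 66 matched GENCODE M1. Named RNAs were, for each comparison, the calls of largest size whose groups did not overlap, the RNAs of each class with the highest mean scaled TPM, well-known RNAs, and their hosts. Snora31, Snora70, Snora24 and the RNAs called with the block were named after their values were seen. The RNAs and lists were chosen with earlier results of these data known.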

Additional observations from a re-analysis of the deposited data

How the results depend on the processing

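In TB IL-2 minus TB IL-2nil the count of passing RNAs was 0, and became 1 without both moved libraries, 4 with the replicate block, 1 with quantile normalization and 5 without the 4 libraries numbered 1 (an alternative chosen after seeing the data). It ran from 0 to 3 when single libraries were left out, with 3 without TB IL-2 replicate 1 and 1 without TB IL-2nil replicate 1, TB IL-2nil replicate 2 or the library labelled TB+ IL-2 replicate 3. In TB+ IL-2 minus TB IL-2 the count of 1 became 0 with libraries as labelled and 2 with the replicate block, and ran from 1 to 3, with 3 without TB IL-2 replicate 1 or TB+ IL-2 replicate 2 and 2 without TB+ IL-2 replicate 1. In TB+ IL-2nil minus TB IL-2nil the count of 3 became 9 with the replicate block and 1 with libraries as labelled, with pseudocount 0.1, without the low-value filter, with quantile normalization and without the libraries numbered 1. It ran from 1, without TB+ IL-2nil replicate 2, to 9, without TB IL-2nil replicate 2. In TB+ IL-2 minus TB+ IL-2nil the count of 1 became 0 with libraries as labelled, 7 with the replicate block, and 2 with quantile normalization or without the libraries numbered 1, and ran from 1 to 2, with 2 without TB+ IL-2 replicate 2 or TB+ IL-2nil replicate 1. For the interaction the count was 0 and ran from 0 to 1, with 1 without the library labelled TB IL-2nil replicate 3. The cause of these shifts was not tested.

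No value of a called RNA changed sign under the alternatives run. Snora2b kept its call in TB+ IL-2nil minus TB IL-2nil in 15 of 15, Snora31 in 4, Snora41 in 7 and Snord12 in 13. Snora2b and Snord12 met the 3-library rule only through the group where they are high. Their counts are therefore set by the selection and are no support for those differences. The class medians moved by less than 1 SD between libraries of a group, except that of scaRNAs in TB+ IL-2 minus TB IL-2, which was 0.00 and ran from −2.13, without TB+ IL-2 replicate 2, to 0.29. Box C/D medians crossed 0 when single libraries were left out in all 5 comparisons, for example from −2.30 to 1.54 in TB+ IL-2nil minus TB IL-2nil, while H/ACA medians ran from 0.35 to 1.69 there and from −1.49 to −0.83 in TB+ IL-2 minus TB+ IL-2nil. The H/ACA medians also crossed 0 in TB IL-2 minus TB IL-2nil (−0.87 to 0.32) and in TB+ IL-2 minus TB IL-2 (−0.33 to 0.89). H/ACA medians in TB+ IL-2nil minus TB IL-2nil were 0.67 with quantile normalization and 0.66 without scaling, which moved the median of all genes from −0.38 to −0.14 and −0.78. The scaRNA median there was 0.09 with quantile normalization and ran from −0.15, without TB IL-2nil replicate 1, to 1.19, and in TB+ IL-2 minus TB+ IL-2nil it ran from −3.18 to −1.52. Of the box C/D values above 0, 44.7% were 1 to 3 fragments, and the part of this in the shifts was not tested.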
